A study of Mus musculus with 4 samples.

Results

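The genes of collagen modification and crosslinking followed here through the cells of a mouse tibia were P4ha1, P4ha2, P3h1, Crtap, Plod1, Plod2, Fkbp10, Serpinh1, Lox and Loxl2. They were taken by name from the gene count matrix and make up 10 of its 31053 genes. All 10 were matched by identifier to the GENCODE M21 annotation of GRCm38, where each is protein-coding. The library came from the cells of the proximal and distal tibia of 1 male mouse at postnatal day 6, with its 2 tibiae pooled. Its 4 sequencing entries are 1 library, so no value below has a replicate, and no test or p-value is given. The mouse carried Col10a1Cre, which is driven by the promoter of a collagen gene of hypertrophic chondrocytes (HCs), and a Rosa26-Tdtomato reporter that marks HCs and their descendants. It was also Irx3 +/Δ and Irx5 +/-, the heterozygous control of its study. Per the study's methods the Irx3 deletion is made by Col10a1Cre in HCs, so it is carried by HCs and their descendants, whereas the Irx5 allele is shared by all cells. Cells with and without reporter fluorescence were both taken.

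A procollagen chain is modified while it is made in the endoplasmic reticulum and crosslinked after it has left the cell. Prolyl 4-hydroxylases give the triple helix its stability, lysyl hydroxylases make the hydroxylysines that later form crosslinks, and the P3h1 and Crtap proteins form a complex that 3-hydroxylates single prolines. Serpinh1 encodes HSP47, a chaperone for the folded helix, and Fkbp10 a peptidyl-prolyl isomerase that assists the lysyl hydroxylase encoded by Plod2. Outside the cell, lysyl oxidases oxidise lysines and hydroxylysines and so start the crosslinks of cartilage and bone. Loss of several of these genes is a known cause of brittle bone disease.

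The matrix counts transcripts by their unique molecular identifiers (UMIs), with reads taken near the 3′ end of the transcript. A level is the UMIs of a gene in a class of cells per 1000000 UMIs of that class (CPM), with an exact Poisson 95% interval in parentheses that covers counting error only. Since a captured transcript gives 1 UMI whatever its length, no scaling by length applies, though capture can differ between genes. The 8255 cells kept hold 137250350 UMIs, from 2623 to 85279 per cell. The 10 genes and a list of 30 related genes were left out of the genes used for clustering. Of 30 clusters, 12, with 3420 cells, took skeletal names from markers: 441 resting, 725 maturing, 160 cycling and 498 pre-hypertrophic (pre-HC-like) chondrocyte-like cells, 111 HC-like cells, 555 immature and 401 mature osteoblast-like cells, 252 marrow stromal progenitor-like cells and 277 fibroblast-like cells. Median depth ran from 9374 UMIs per fibroblast-like cell to 33065 per HC-like cell. No osteocyte-like class separated, and 6 clusters with 505 cells stayed unnamed.

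Since the names rest on marker genes, marker levels describe the classes and do not test them. Col10a1, the leading marker that named the HC-like cluster, stood at 11302 CPM in HC-like cells against 595 in pre-HC-like cells, and Bglap, the osteocalcin gene, at 10748 CPM in mature against 734 in immature osteoblast-like cells. The name of the resting class is not firm, since Ucma, a marker of maturing chondrocytes here, was among the leading genes of both of its clusters. Its cells numbered 441 here and between 88 and 535 when the clustering was varied. The cycling class was found in 1 of 9 other clusterings, and the marrow stromal progenitor-like class was absent from 3 of them. Markers of blood cells were found in skeletal classes at unequal levels. The 24 leukocyte markers summed to 4095 CPM in HC-like cells, with 8 of them at 10 CPM or more and Ptprc at 9.7 CPM, against 165 CPM in pre-HC-like cells. The 10 erythroid markers summed to 52288 CPM in marrow stromal progenitor-like and 11029 CPM in mature osteoblast-like cells, against 3025 CPM in immature ones.

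Erythroid-like and leukocyte-like cells, which had few fibrillar collagen UMIs, gave the level to be read as background. In 655 erythroid-like cells (median 14020 UMIs) the 10 genes together stood at 87.5 CPM (82.4 to 92.9), and in 2430 leukocyte-like cells (median 11467.5 UMIs) at 153 CPM (148 to 157). Their sum was 2291 CPM or more in each of the 9 skeletal classes. Lox in maturing chondrocyte-like cells, at 6.68 CPM (5.45 to 8.11), had an interval that overlapped its leukocyte-like one, at 6.43 CPM (5.57 to 7.39). The other genes were above their leukocyte-like level in every skeletal class, with intervals apart. No share over all genes was computed for this, so it only describes these genes. It also depends on the class taken as background. In osteoclast-like cells the sum was 345 CPM (332 to 358), still below each skeletal sum. Plod1 there, at 68.6 CPM (63.0 to 74.6), was above its immature osteoblast-like level of 46.6 CPM (41.8 to 51.8).

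**Figure D1:**
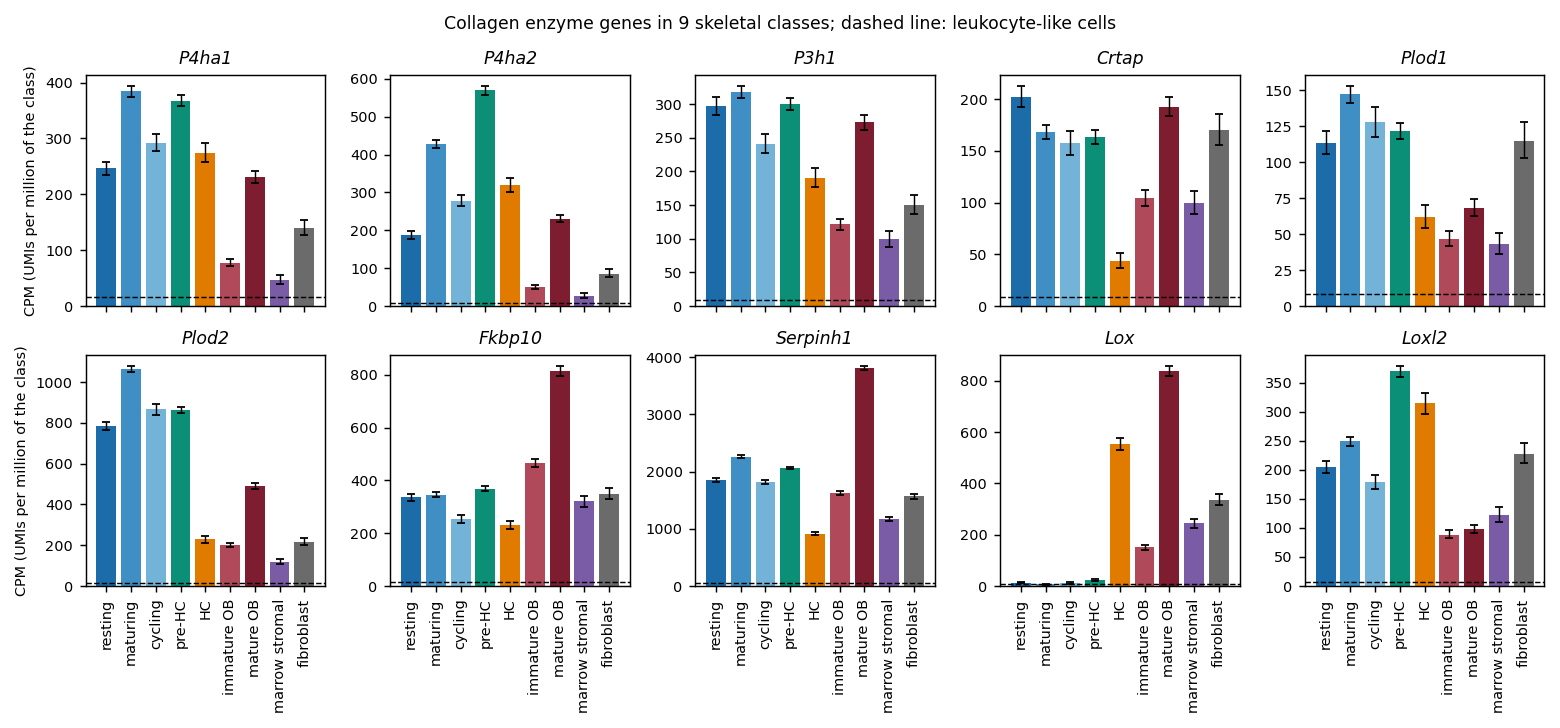
Level of each of the 10 genes in CPM (linear axes that start at 0) in the 9 skeletal classes, with exact Poisson 95% intervals as error bars and the level in leukocyte-like cells as a dashed line. OB stands for osteoblast. Plod2 was highest in maturing chondrocyte-like cells at 1065 CPM, Serpinh1, Fkbp10 and Lox were highest in mature osteoblast-like cells, and Lox was near the dashed line in resting, maturing and cycling chondrocyte-like cells.

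P4ha1 (ENSMUSG00000019916; chr10:59323296-59373304, plus strand) and P4ha2 (ENSMUSG00000018906; chr11:54100095-54131665, plus strand) encode catalytic subunits of prolyl 4-hydroxylase. Both had their 2 highest levels in maturing and pre-HC-like chondrocytes. Mature osteoblast-like cells were not below every chondrocyte-like class. Their P4ha1 interval overlapped that of resting chondrocyte-like cells, and their P4ha2 level was above the resting one, with intervals apart. P4ha1 stood at 247 CPM (235 to 259) in resting, 385 (375 to 395) in maturing, 292 (277 to 308) in cycling and 367 (358 to 377) in pre-HC-like chondrocytes, and at 274 (258 to 292) in HC-like cells. It was at 77.2 CPM (71.0 to 83.8) in immature and 231 (221 to 242) in mature osteoblast-like cells, 47.4 (40.0 to 55.7) in marrow stromal progenitor-like and 141 (127 to 155) in fibroblast-like cells. The intervals of its 2 highest classes, maturing and pre-HC-like, overlapped, and so did those of neighbours among cycling, HC-like, resting and mature osteoblast-like cells.

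P4ha2 was highest in pre-HC-like cells, though at a clustering resolution of 0.6 its log2 ratio to maturing chondrocyte-like cells was -0.07. It stood at 187 CPM (177 to 197) in resting, 427 (417 to 438) in maturing, 278 (263 to 294) in cycling and 570 (558 to 583) in pre-HC-like chondrocytes, and at 320 (302 to 339) in HC-like cells. It was at 50.02 CPM (45.0 to 55.4) in immature and 231 (221 to 242) in mature osteoblast-like cells, 26.9 (21.5 to 33.4) in marrow stromal progenitor-like and 85.6 (75.4 to 96.8) in fibroblast-like cells. No neighbours in this order had overlapping intervals, and the highest class was 21.2-fold above the lowest. That both genes gave 1939 UMIs in mature osteoblast-like cells is a coincidence of totals, since they divided differently over reporter-marked cells, with 724 for P4ha1 and 764 for P4ha2.

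The pre-HC-like class joins a pair of clusters that differed in these genes. The first, of 197 cells, was led by 2610528A11Rik, Espn, Tnni2, Il17b, Cox4i2, Serinc5, Bnip3, Aldoc, P3h2 and Egln1. In it P4ha2 stood at 705 CPM (682 to 729) and P4ha1 at 345 (329 to 361). The second, of 301 cells, was led by Cdkn1c, Ihh, Ppa1, Sgms2, Pth1r, Smpd3, Panx3, Car8, Fxyd2 and Comp. There P4ha2 stood at 500 CPM (486 to 514) and P4ha1 at 379 (367 to 391.8). P4ha2 was thus higher in the first cluster and P4ha1 slightly higher in the second. The pre-HC-like name of the first cluster rests on 2 leading markers, Il17b and Serinc5. That of the second rests on 4, which include Ihh and Pth1r, so the name of the first is less firm. After each cell was thinned to 5000 UMIs, P4ha2 was found in 91.2% of pre-HC-like cells (88.3 to 93.5%, exact Clopper-Pearson) and in 18.1% of immature osteoblast-like cells (14.9 to 21.6%). In leukocyte-like cells thinned alike the share was 2.70%. Without thinning, P4ha2 was found in 498 of 498, 37.8% and 6.13% of these cells, at median depths of 28718.5, 11469 and 11467.5 UMIs.

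Over the 12 skeletal clusters, P4ha1 and P4ha2 had the most alike pattern of any pair among the 10 genes, with a Pearson correlation of log2(CPM + 1) of 0.93. The clusters share 1 library and differ in depth, so this value is a description. For that reason the promoter windows of this pair are shown, each from 250 bases before to 50 after the RefSeq gene start (GRCm38.p6, plus strand). Capitals mark ACGTG and GCGTG on either strand (CACGT and CACGC when read on the other), the core letters of the site that hypoxia-inducible factors can bind.
P4ha1, chr10:59323046-59323345: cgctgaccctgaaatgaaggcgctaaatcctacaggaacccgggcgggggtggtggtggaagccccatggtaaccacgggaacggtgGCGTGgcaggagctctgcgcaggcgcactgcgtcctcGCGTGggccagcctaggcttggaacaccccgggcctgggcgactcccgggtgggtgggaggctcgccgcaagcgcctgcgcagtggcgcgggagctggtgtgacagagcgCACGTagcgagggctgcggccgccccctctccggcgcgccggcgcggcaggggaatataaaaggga
P4ha2, chr11:54100674-54100973: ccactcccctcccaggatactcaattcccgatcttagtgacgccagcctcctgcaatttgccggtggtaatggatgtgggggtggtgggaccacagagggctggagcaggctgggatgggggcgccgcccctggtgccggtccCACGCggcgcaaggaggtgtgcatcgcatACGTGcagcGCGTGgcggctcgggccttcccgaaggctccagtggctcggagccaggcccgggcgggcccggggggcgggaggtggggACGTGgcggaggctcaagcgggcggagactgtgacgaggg

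The P4ha1 window holds 3 such matches and the P4ha2 window 4. Of all 32851 promoter windows of that length, 43.8% hold at least 1 match and 8.93% hold at least 3. The windows of the other members in the table held 2 in each of 2 windows for P3h1, 3 for Crtap, 2 for Plod1 and 1 for Serpinh1. Both printed windows are 70.3% G and C, whereas the shares over all windows were not matched for G and C. A match of letters is not a binding site. The P4ha2 window lies inside the span that GENCODE gives the gene, which starts farther upstream.

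P4ha3, the third catalytic gene of this family, was the minor form in chondrocytes and a major one in fibroblasts. It made up 1.7% of the family's UMIs in pre-HC-like cells and 0.3% (0.1 to 0.7%) in HC-like cells, 0.9% in mature osteoblast-like cells, 27.1% in marrow stromal progenitor-like and 31.9% (29.0 to 35.0%) in fibroblast-like cells. P4ha2 made up 59.8% of the family in pre-HC-like and 25.8% in fibroblast-like cells, while P4ha1 stayed between 38.5% and 52.8% in all 9 classes. P4hb, the shared beta subunit, stood between 387 CPM in marrow stromal progenitor-like and 850 CPM in HC-like cells, a narrower range than that of either P4ha1 or P4ha2.

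P3h1 (ENSMUSG00000028641; chr4:119232915-119248975, plus strand) encodes the prolyl 3-hydroxylase, and Crtap (ENSMUSG00000032431; chr9:114375134-114390675, minus strand) its helper protein in one complex. P3h1 stood at 297 CPM (284 to 310) in resting, 318 (309 to 327) in maturing, 241 (227 to 256) in cycling and 300 (291 to 309) in pre-HC-like chondrocytes, and at 191 (177 to 205) in HC-like cells. In the other classes it was at 121 CPM (113 to 129) in immature and 273 (262 to 284) in mature osteoblast-like cells, 99.0 (88.2 to 111) in marrow stromal progenitor-like and 150 (136 to 164) in fibroblast-like cells. Its range of 3.22-fold was the narrowest of the 10 genes.

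Crtap did not follow P3h1 into HCs. It stood at 202 CPM (192 to 213) in resting, 168 (162 to 175) in maturing, 157 (146 to 169) in cycling and 163 (157 to 170) in pre-HC-like chondrocytes, but at 43.7 (37.2 to 50.9) in HC-like cells, its lowest class. It was at 104 CPM (97.1 to 112) in immature and 193 (183 to 202) in mature osteoblast-like cells, 99.3 (88.5 to 111) in marrow stromal progenitor-like and 171 (156 to 186) in fibroblast-like cells. From resting down to cycling, its 6 highest classes formed a run in which each interval overlapped the next. In thinned cells, Crtap was found in 20.9% of HC-like cells (13.7 to 29.7%) against 54.4% of pre-HC-like cells (49.9 to 58.9%) and 3.94% of leukocyte-like cells. Unthinned shares were 65.8%, 95.2% and 9.47%, at median depths of 33065, 28718.5 and 11467.5 UMIs.

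Among the partners and relatives of this complex, Ppib, the cyclophilin B gene that completes it, stood between 969 CPM in HC-like and 1412 CPM in pre-HC-like cells. P3h2, a second 3-hydroxylase gene, was highest in the pre-HC-like class, at 230 CPM against 75.3 in maturing chondrocyte-like, 71.7 in HC-like and 3.3 CPM in immature osteoblast-like cells. Within that class, P3h2 was a leading gene of the 2610528A11Rik-led cluster, whose name is less firm, and not of the Cdkn1c-led one. It took 35.0% (34.0 to 36.0%) of the UMIs of P3h1, P3h2 and P3h3 in pre-HC-like cells and 2.2% in mature osteoblast-like cells, where P3h1 took 68.4%. P3h3 took 54.8% in fibroblast-like cells. P3h4, whose protein works with a lysyl hydroxylase, stood at 290 CPM in pre-HC-like and 110 CPM in HC-like cells.

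Plod1 (ENSMUSG00000019055; chr4:147909753-147936767, minus strand) encodes a lysyl hydroxylase of the helical part of collagen. It was the lowest member other than Lox in the chondrocyte-like classes before hypertrophy, at 113 CPM (106 to 122) in resting, 147 (141 to 153) in maturing, 128 (118 to 138) in cycling and 122 (116 to 128) in pre-HC-like chondrocytes. It was at 61.7 CPM (54.0 to 70.2) in HC-like, 46.6 (41.8 to 51.8) in immature and 68.4 (62.9 to 74.2) in mature osteoblast-like cells, 42.8 (35.8 to 50.8) in marrow stromal progenitor-like and 115 (103 to 128) in fibroblast-like cells. Fibroblast-like cells were thus near the chondrocyte level for Plod1, with an interval that overlapped those of the cycling, pre-HC-like and resting classes.

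Plod2 (ENSMUSG00000032374; chr9:92542223-92608428, plus strand), the lysyl hydroxylase gene of the ends of the chain, was the main gene of its family in every skeletal class. It stood at 784 CPM (764 to 805) in resting, 1065 (1049 to 1082) in maturing, 868 (841 to 895) in cycling and 862 (847 to 877) in pre-HC-like chondrocytes, then at 228 (213 to 244) in HC-like cells. It was at 199.96 CPM (190 to 210) in immature and 490 (475 to 505) in mature osteoblast-like cells, 118 (106 to 131) in marrow stromal progenitor-like and 218 (202 to 236) in fibroblast-like cells. The fibroblast-like interval overlapped those of HC-like and immature osteoblast-like cells, which did not overlap each other, and all 3 classes were below the chondrocyte-like classes before hypertrophy.

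Of the UMIs of the 3 lysyl hydroxylase genes, Plod2 took 81.9% (81.3 to 82.4%) in maturing chondrocyte-like and 81.7% (80.6 to 82.8%) in mature osteoblast-like cells. It took 66.7% (64.1 to 69.3%) in HC-like, 57.3% (54.3 to 60.2%) in fibroblast-like and 55.9% in marrow stromal progenitor-like cells, where Plod1 and Plod3 made up the rest. The Plod2 shares of maturing chondrocyte-like and mature osteoblast-like cells thus had overlapping intervals. Plod3, which also adds sugars to hydroxylysine, ran from 41.1 CPM in mature osteoblast-like to 91.5 CPM in pre-HC-like cells. Colgalt1, a galactosyltransferase gene for the same residues, ran from 101 CPM in marrow stromal progenitor-like to 213 CPM in maturing chondrocyte-like cells.

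Fkbp10 (ENSMUSG00000001555; chr11:100415697-100424824, plus strand) was bone-rich. It stood at 336 CPM (322 to 350) in resting, 346 (337 to 356) in maturing, 255 (240 to 269) in cycling and 369 (359 to 379) in pre-HC-like chondrocytes, and at 232 (217 to 248) in HC-like cells. It was at 467 CPM (452 to 483) in immature and 816 (796 to 835) in mature osteoblast-like cells, 321 (301 to 341) in marrow stromal progenitor-like and 350 (329 to 371) in fibroblast-like cells. Its order thus differed from that of Plod2, the gene of the enzyme it assists: over the 12 clusters their correlation was -0.02, against 0.79 for Fkbp10 and Serpinh1.

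The relatives Fkbp7 and Fkbp9 differed in the same manner. Fkbp7 was at 475 CPM in mature osteoblast-like and 45.9 CPM in maturing chondrocyte-like cells, whereas Fkbp9 was at 501 and 907 CPM. Fkbp14 stood between 50.4 CPM in HC-like and 107 CPM in maturing chondrocyte-like cells.

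Serpinh1 (ENSMUSG00000070436; chr7:99345376-99353239, minus strand) had the most UMIs of the 10 genes, 141905 in skeletal cells. It stood at 1857 CPM (1825 to 1889) in resting, 2258 (2234 to 2282) in maturing, 1813 (1774 to 1852) in cycling and 2060 (2036 to 2083) in pre-HC-like chondrocytes, and at 916 (885 to 947) in HC-like cells. It was at 1627 CPM (1598 to 1657) in immature and 3811 (3769 to 3853) in mature osteoblast-like cells, 1170 (1132 to 1209) in marrow stromal progenitor-like and 1565 (1521 to 1611) in fibroblast-like cells. HC-like cells were the lowest class for both Serpinh1 and Fkbp10. Within the pre-HC-like class, Serpinh1 was at 1458 CPM (1425 to 1492) in the 2610528A11Rik-led cluster and 2374 (2343 to 2405) in the Cdkn1c-led one, the opposite order to P4ha2.

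Lox (ENSMUSG00000024529; chromosome 18, 52516067 to 52529867, minus strand) encodes the founding lysyl oxidase. It had the widest range of the 10 genes, with nearly no signal in cartilage before hypertrophy. It stood at 13.7 CPM (11.1 to 16.7) in resting, 6.68 (5.45 to 8.11) in maturing, 10.9 (8.10 to 14.3) in cycling and 23.4 (20.98 to 26.0) in pre-HC-like chondrocytes, against 6.43 (5.57 to 7.39) in leukocyte-like cells. The maturing level overlapped that background. In HC-like cells Lox stood at 554 CPM (530 to 578).

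In bone, Lox was at 150 CPM (142 to 160) in immature and 839 (820 to 859) in mature osteoblast-like cells, 244 (227 to 262) in marrow stromal progenitor-like and 336 (316 to 358) in fibroblast-like cells. In thinned cells it was found in 3.87% of maturing chondrocyte-like (2.59 to 5.55%), 11.2% of pre-HC-like (8.61 to 14.4%), 69.1% of HC-like (59.6 to 77.6%) and 94.3% of mature osteoblast-like cells (91.5 to 96.3%). In thinned leukocyte-like cells the share was 2.74% (2.11 to 3.50%). The maturing share is therefore at background, and the pre-HC-like share is above it. Unthinned, these shares were 11.6%, 30.5%, 91.9%, 99.8% and 5.35%. Lox was also uneven among fibroblasts, at 580 CPM (536 to 627) in 115 cells led by Aspn and Postn and 196 (176 to 217) in 162 cells led by Mfap5, Tnmd and Thbs4.

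Loxl2 (ENSMUSG00000034205; chr14:69609068-69695834, plus strand) led its family in each chondrocyte-like class before hypertrophy, but its level was not particular to cartilage. It stood at 205 CPM (194 to 215) in resting, 249 (241 to 257) in maturing, 179 (167 to 192) in cycling and 369 (360 to 379) in pre-HC-like chondrocytes, and at 314 (296 to 333) in HC-like cells. It was at 88.6 CPM (82.0 to 95.7) in immature and 98.4 (91.8 to 105) in mature osteoblast-like cells, whose intervals overlapped, 123 (111 to 136) in marrow stromal progenitor-like and 228 (211 to 246) in fibroblast-like cells. Like P4ha2, it was higher in the 2610528A11Rik-led pre-HC-like cluster (474 CPM, 456 to 494) than in the Cdkn1c-led one (315 CPM, 303 to 326).

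The 5 lysyl oxidase genes divided the skeletal classes among them. Loxl2 took 67.7% (66.4 to 68.9%) of the family's UMIs in maturing chondrocyte-like and 68.5% (67.5 to 69.5%) in pre-HC-like cells. Lox took 1.8% and 4.3% there, 49.0% (47.5 to 50.5%) in HC-like and 82.8% (82.0 to 83.6%) in mature osteoblast-like cells. Loxl3 was a second cartilage gene, with 32.5% in resting and 27.1% in maturing chondrocyte-like cells and 2.0% in HC-like cells. Loxl4 was highest in HC-like cells, at 233 CPM or 20.6% (19.4 to 21.9%), against 56.8 CPM in pre-HC-like and 6.3 CPM in immature osteoblast-like cells. Loxl1 was a gene of immature osteoblast-like (30.2%), marrow stromal progenitor-like (35.0%) and fibroblast-like cells (25.3%), and took 0.6% in mature osteoblast-like cells.

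**Figure D2:**
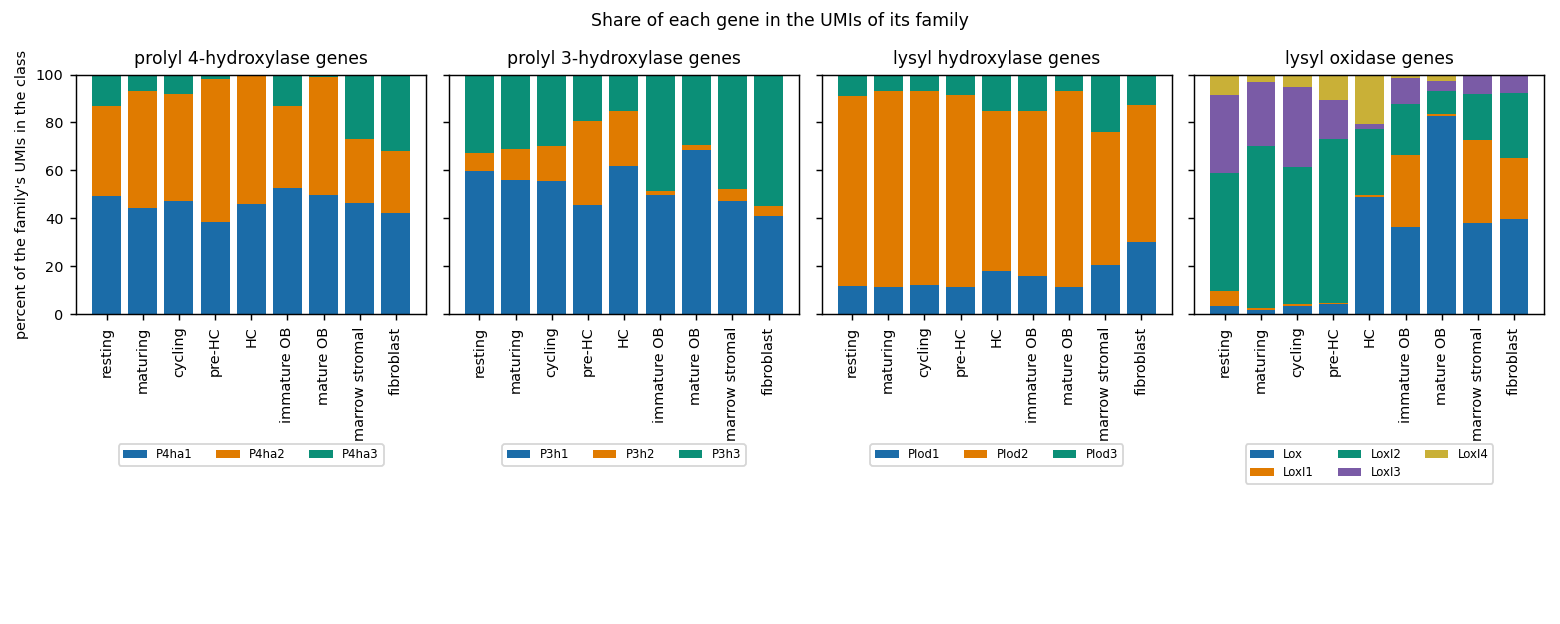
Stacked bars of the percent of each family's UMIs that each gene took, in 9 skeletal classes, for the prolyl 4-hydroxylase, prolyl 3-hydroxylase, lysyl hydroxylase and lysyl oxidase genes. OB stands for osteoblast. Plod2 took 55.9% or more of its family in every class. The leading lysyl oxidase gene was Loxl2 in chondrocytes before hypertrophy and Lox in each of the other classes.

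The classes were then compared pairwise by the log2 ratio of their CPM with 1 CPM added. All genes with at least 10 CPM in either class were tested. No cells were ordered in time, so a ratio does not follow the same cells from one class to the next. Most osteoblast-like cells also lacked the reporter mark of HC origin that is used below. A gene was called at 2-fold or more, and the intervals of ratios were computed without the added CPM. The median over all genes tested was 0.47 for HC-like over pre-HC-like and -0.48 for mature over immature osteoblast-like cells, and within 0.1 of 0 in the other comparisons. Ratios relative to these medians are therefore given for those 2 comparisons.

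From maturing to pre-HC-like chondrocytes the genes were nearly level. Of 10 genes, 1 was called higher, against 3.34% of the 6926 genes tested, and 0 were called lower, against 2.51%. This was Lox, at 1.67 (1.48 to 2.14), which rests on a level near background. Loxl2 was 1.48-fold and P4ha2 1.33-fold higher, and Plod2 was 1.24-fold lower. Of the 23 tested genes of the wider list, 3 were called higher, Loxl4 at 2.29, P3h2 at 1.60 and Creb3l1, a transcription factor gene of secretory bone cells, at 1.60, and P4ha3 was called lower at -1.83.

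From pre-HC-like to HC-like cells the set divided. Lox was the 1 gene of 10 called higher, at 4.51 (4.40 to 4.73) or 22.7-fold, against 22.7% of 7977 genes. The 3 called lower, against 5.50% of genes, were Plod2 at -1.91 (-2.02 to -1.82), Crtap at -1.88 (-2.14 to -1.67) and Serpinh1 at -1.17 (-1.22 to -1.12). The other 6 lay between -0.97 for Plod1 and -0.23 for Loxl2. Relative to the median of all genes, 7 of 10 were at least 2-fold lower, P4ha2, P3h1, Plod1 and Fkbp10 being the further 4, and Lox was at 4.03. No share over all genes was computed for these centred ratios, so the 5.50% is not their background. Of 24 tested genes of the wider list 9 were called lower and 3 higher, the higher ones being Loxl4 at 2.02, Mia3, a gene of procollagen export, at 1.53, and Bmp1, the procollagen C-proteinase gene, at 1.11. The leukocyte marker sum was 4095 CPM in HC-like against 165 CPM in pre-HC-like cells, and its part in these ratios was not tested.

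From HC-like to immature osteoblast-like cells, Crtap at 1.24 (1.01 to 1.51) and Fkbp10 at 1.01 (0.90 to 1.12) were called higher, or 2 of 10 against 18% of 8983 genes. The 4 called lower, against 14.7%, were P4ha2 at -2.65 (-2.85 to -2.51), Lox at -1.87 (-1.99 to -1.77), P4ha1 at -1.82 (-1.98 to -1.68) and Loxl2 at -1.81 (-1.97 to -1.69). The count of higher genes is close to the background share, and Fkbp10 is at the very edge of the call, which held in 8 of 14 other settings. Before centring, P4ha1 and P4ha2 were thus less than 2-fold lower in HC-like than in pre-HC-like cells. Relative to the median of all genes, P4ha2 was more than 2-fold lower there. Both were lower still in immature osteoblast-like cells. Plod2, called lower in HC-like than in pre-HC-like cells, was at -0.19 for immature osteoblast-like over HC-like cells. The wider list had 7 genes called higher and 6 lower of 26 tested. Immature osteoblast-like cells had 21 of 24 leukocyte markers at 10 CPM or more, with a sum of 1448 CPM, below the sum in HC-like cells.

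From immature to mature osteoblast-like cells, 6 of 10 genes were called higher, against 4.44% of 8365 genes, and 0 lower, against 18.6%. Lox was at 2.47 (2.39 to 2.57), P4ha2 at 2.18 (2.05 to 2.37), P4ha1 at 1.57 (1.45 to 1.72), Plod2 at 1.29 (1.21 to 1.38), Serpinh1 at 1.23 (1.20 to 1.26) and P3h1 at 1.17 (1.06 to 1.29). Crtap at 0.88, Fkbp10 at 0.80 and Plod1 at 0.54 were higher by less than 2-fold, and Loxl2 was at 0.15 (0.00 to 0.30). Relative to the median of all genes, 9 of 10 were at least 2-fold higher, with Loxl2 at 0.63. The 4.44% does not apply to these centred ratios, for which no share over all genes was computed. In the wider list 9 of 25 were called higher, among them Loxl4 at 2.02, Fkbp7 at 1.66, P3h4 at 1.42 and Pcolce, an enhancer of procollagen cleavage, at 1.08. The 2 called lower were Loxl1 at -4.16 and P4ha3 at -1.92. The erythroid marker sum was 11029 CPM in mature against 3025 CPM in immature osteoblast-like cells, and its part in these ratios was not tested.

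Fibroblast-like cells were then compared with immature osteoblast-like cells. Of 10 genes, 3 were called higher, against 10.8% of 9121 genes, and 0 lower, against 6.63%: Loxl2 at 1.35 (1.20 to 1.52), Plod1 at 1.28 (1.08 to 1.52) and Lox at 1.16 (1.04 to 1.29). The call of Lox held in 8 of 15 other settings, with ratios from 0.71 to 1.48. The ratio also joins unlike clusters, since Lox was lower in the larger fibroblast-like cluster, of 162 cells, than in the other. Fkbp10 was 1.34-fold lower and Serpinh1 was level at -0.06 (-0.11 to -0.01). Of the wider list 4 of 26 were called higher and 1 lower, the first led by P4ha3 at 2.42.

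Maturing chondrocyte-like cells, the largest chondrocyte-like class, and mature osteoblast-like cells, named bone here, were compared last. Lox at 6.77 (6.69 to 7.27) and Fkbp10 at 1.23 (1.18 to 1.29) were called higher in bone, or 2 of 10 against 15.2% of 7677 genes. Loxl2 at -1.33 (-1.45 to -1.23), Plod2 at -1.12 (-1.17 to -1.07) and Plod1 at -1.09 (-1.24 to -0.97) were called lower, or 3 of 10 against 13.0%. The call of Plod1 held in 10 and that of Plod2 in 13 of 15 other settings. P3h1 was 1.17-fold lower and Crtap 1.15-fold higher in bone. For Lox the chondrocyte level is at background, so its ratio is set by that background. The wider list had 9 genes higher and 6 lower of 25, with Bmp1 at 4.04 and Colgalt2, a second galactosyltransferase gene, at -4.44. Creb3l1, Mia3, Bmp1 and Colgalt2 were singled out after their values had been seen.

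**Figure D3:**
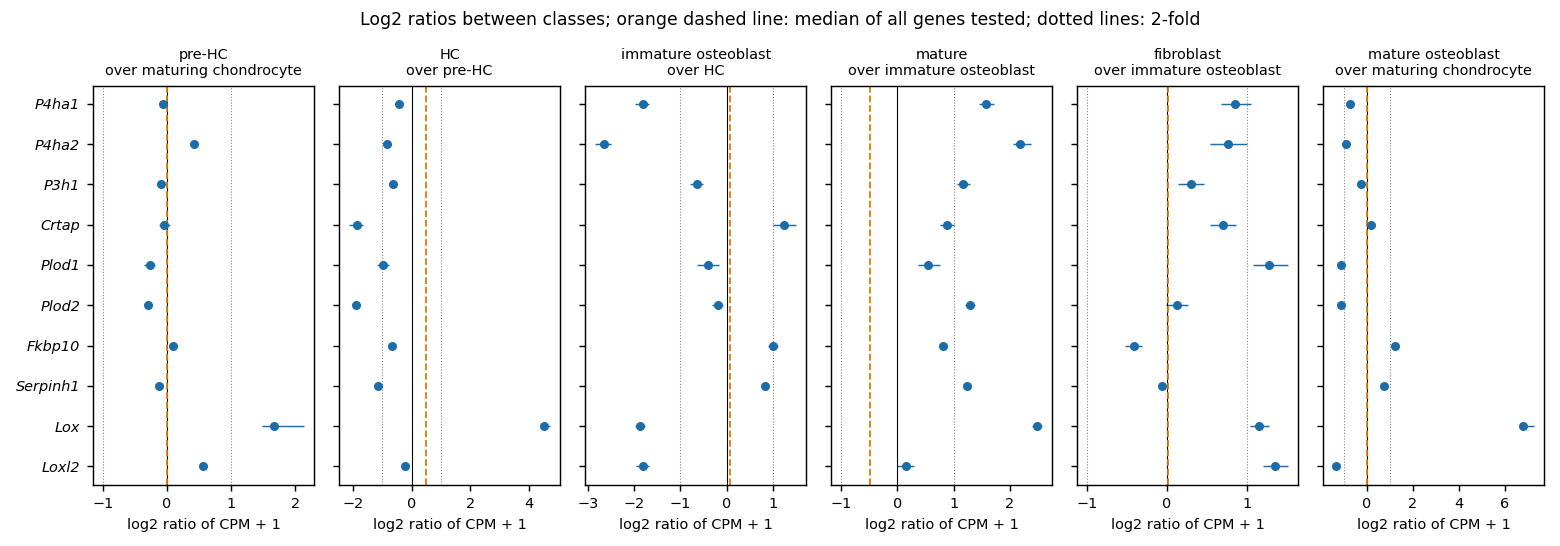
Log2 ratio of CPM + 1 for the 10 genes in each of 6 comparisons of classes, with 95% counting intervals as horizontal bars, dotted lines at 2-fold and an orange dashed line at the median of all genes tested. HC stands for hypertrophic chondrocyte, and axes differ between panels. The 10 genes sit to the right of the orange line for mature over immature osteoblast, and 9 of 10 sit to its left for HC over pre-HC, with Lox at 4.51 on the other side.

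The enzymes were also set against their substrates. Summed over the 10 genes, the level was 7050 CPM (6994 to 7107) in mature osteoblast-like, 5370 (5334 to 5407) in maturing chondrocyte-like, 5206 (5169 to 5243) in pre-HC-like and 2291 (2238 to 2345) in marrow stromal progenitor-like cells. Serpinh1 supplies a large part of each sum. The 11 fibrillar collagen genes took 13.9% of all UMIs in mature osteoblast-like cells, 6.9% in pre-HC-like, 1.6% in HC-like, 2.0% in immature osteoblast-like and 0.7% in marrow stromal progenitor-like cells. The collagen share thus had a wider range over the classes than the sum of the 10 genes, though not than Lox or P4ha2 alone. Collagen genes, unlike the 10 genes, could take part in the clustering, and Col1a1 and Col2a1 set limits for the names. These ranges were therefore not measured on equal terms.

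Per 1000 fibrillar collagen UMIs, the 10 genes gave 50.6 UMIs in mature osteoblast-like, 58.8 in fibroblast-like, 61.1 in resting, 75.6 in pre-HC-like and 90.6 in maturing chondrocyte-like cells. They gave 149 in immature osteoblast-like, 194 in HC-like and 306 in marrow stromal progenitor-like cells. These ratios were highest where the collagen share, which is their divisor, was lowest. Counting Col10a1 with the fibrillar genes gave 114 in HC-like cells, below the 148 of immature osteoblast-like cells. Per fibrillar collagen UMI, HC-like cells had the most P4ha1 and P4ha2 of the 9 skeletal classes, at 16.97 and 19.8 per 1000, against 6.5 and 7.2 in maturing chondrocyte-like and 1.7 each in mature osteoblast-like cells. Crtap did not share this, at 2.7 in HC-like and 2.8 in maturing chondrocyte-like cells. Col10a1, at 11302 CPM in HC-like cells, forms networks and is not among the 11 fibrillar genes. Those together stood at 16166 CPM there, with Col2a1 alone at 10885 CPM.

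**Figure D4:**
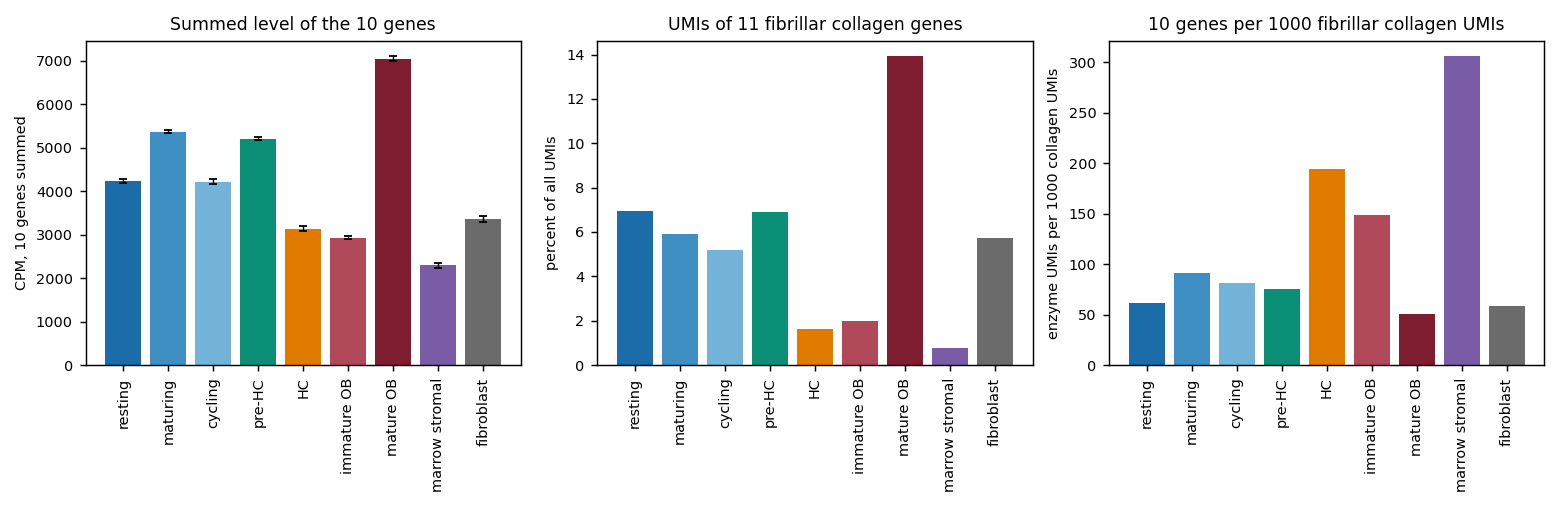
From left to right, bars show the summed level of the 10 genes in CPM with exact Poisson 95% intervals, the percent of all UMIs from 11 fibrillar collagen genes, and the UMIs of the 10 genes per 1000 fibrillar collagen UMIs, in 9 skeletal classes. OB stands for osteoblast. Mature osteoblast-like cells are highest in the first and second panels, at 7050 CPM and 13.9%, and lowest in the third, at 50.6.

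Single cells held several of the genes at once. Thinned to 5000 UMIs, a cell had a median of 7 of the 10 genes in each chondrocyte-like class before hypertrophy and in mature osteoblast-like cells, 6 in HC-like and fibroblast-like cells and 4 in immature osteoblast-like and marrow stromal progenitor-like cells. At least 5 genes were found in 99.0% of pre-HC-like, 94.3% of mature and 49.6% of immature osteoblast-like cells. The same share was 0.531% in leukocyte-like and 0.153% in erythroid-like cells.

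The reporter was used as an incomplete mark of origin. Col10a1Cre switches on the reporter and also deletes an Irx3 allele, so origin and Irx3 dose cannot be told apart between these groups. Cells with more than 14 UMIs of WPRE, an element of the reporter transcript, were counted as HCs or their descendants. The study matched this cutoff to its measured frequency of tdTomato-positive HCs. It also names limited sensitivity in detecting tdTomato transcripts as a possible influence. Cells at or below the cutoff can therefore include HC-derived ones. In mature osteoblast-like cells, 132 lay above this cutoff and 269 did not, at median depths of 18629 and 18790 UMIs. Serpinh1 stood at 4324 CPM (4248 to 4400) above and 3541 (3491 to 3591) at or below it, Fkbp10 at 945 (910 to 981) and 748 (725 to 771), and Lox at 958 (922 to 994) and 777 (754 to 800). P4ha2, at 264 (245 to 283) and 214 (202 to 226), and P3h1, at 308 (288 to 329) and 254 (241 to 268), had the same order. Intervals did not overlap for these 5 genes, or 5 of 10 higher above the cutoff against 11.3% of 7247 genes, whereas those of Plod2, at 486 (461 to 512) and 492 (474 to 511), did. Loxl2 had the opposite order, at 83.9 (73.7 to 95.2) and 106 (97.6 to 115), or 1 of 10 against 4.42%. The median log2 ratio of all genes was 0.11, and 0 of the 10 genes differed by 2-fold. The 5 higher genes had log2 ratios from 0.28 for P3h1 to 0.34 for Fkbp10. Whether intervals come apart depends on the UMIs of a gene as well as on its ratio. Shares by intervals, here and in the classes below, were not matched for abundance and are not a like background.

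In immature osteoblast-like cells, 117 lay above the cutoff and 438 did not, at median depths of 12539 and 10873 UMIs. Lox stood at 214 CPM (193 to 235) above and 128 (118 to 138) at or below it, and for each of the other 9 genes the intervals overlapped, Plod2 with 220 (200 to 242) and 193 (181 to 205) included. Among the 8474 genes tested there, intervals were apart and higher above the cutoff for 5.90% and lower for 6.82%. In HC-like cells 89 of 111 lay above the cutoff. As both groups there are HC-like, this split is not one of origin. Lox stood at 599 CPM (572 to 626) above the cutoff against 263 (220 to 312) in the other 22, at median depths of 35646 and 26077 UMIs. It was the 1 gene of 10 at 2-fold or more, against 7.53% of 8383 genes higher and 4.84% lower by 2-fold. By intervals, Lox was higher, against 5.07% of genes, and P4ha1, Plod2 and Serpinh1 were lower above the cutoff, against 6.08%. In marrow stromal progenitor-like cells, 44 lay above the cutoff and 208 did not, at median depths of 11201.5 and 10416 UMIs. There Lox stood at 325 CPM (280 to 376) above the cutoff and 226 (208 to 245) at or below it. Lox was the 1 gene of 10 with intervals apart in that class, against 3% of 8768 genes higher and 2.74% lower. Lox was thus higher above the cutoff in each of the 4 classes compared, of which the HC-like split is not one of origin. These groups come from 1 mouse, and their cells are not replicates.

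**Figure D5:**
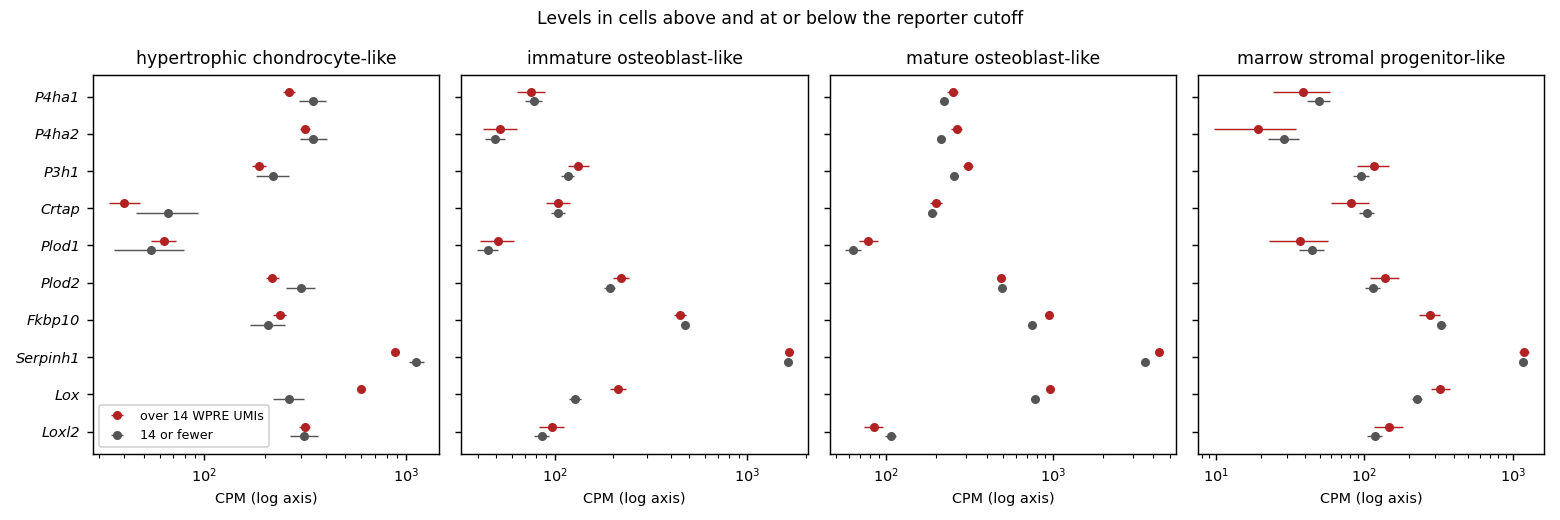
Level of the 10 genes in CPM (log axis) in cells with more than 14 WPRE UMIs (red) and in the other cells (grey) of 4 classes, with exact Poisson 95% intervals as horizontal bars. Lox is to the right in red in each panel, at 599 against 263 CPM in hypertrophic chondrocyte-like cells and 958 against 777 CPM in mature osteoblast-like cells.

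The genes outside both lists with the most alike pattern over the 12 skeletal clusters were sought among 4793 genes with at least 50 CPM in one of them. P4ha1 was most like Slc35a2 (Pearson r of 0.98), P4ha2 like Smpd3 (0.96) and Aldoc (0.95), P3h1 like Rcn1 (0.95), Serpinh1 like Rcn3 (0.93) and Lox like Tmem57 (0.95). Plod2 was most like H2-DMa (0.95) and Chst11 (0.95), Plod1 like Rarg (0.95) and Crtap like Trp53i13 (0.91). Of the 9 genes given here, Fkbp10 had the least alike partner, Serf1 at 0.85. Among the 10 genes themselves, Lox stood apart, with values from -0.81 against Plod2 to 0.34 against Fkbp10. All points share 1 library, and with the largest of so many correlations taken these values are descriptions.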

How the data were processed

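The authors deposited UMI counts per gene and barcode, not normalized, from Cell Ranger 3.1.0 with mm10 and reporter sequences added, and named Seurat 3 in their processing notes. A second deposited count table of exogenous sequences gave WPRE. The P56 sample was not analysed here.

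Of 14181 barcodes, those with at least 1600 genes (the study's minimum), at most 10% mitochondrial and at most 50% ribosomal protein UMIs were kept. With Python 3.11.15 and scanpy 1.11.5, each cell was scaled to 10000 UMIs before a log transform, and 2000 variable genes, 30 principal components and 20 neighbours were used for Leiden clustering at resolution 1 (seed 1). A cluster took the marker list with the most genes among its 10 leading genes by fold over all other cells (10 CPM added), with at least 3 markers at 10 CPM. Chondrocyte names needed 5000 CPM of Col2a1, more Col2a1 than Col1a1 and under 50 CPM of Ptprc, bone and fibroblast names no less Col1a1 than Col2a1 and the same Ptprc limit, and the remaining names less than 5000 CPM of either collagen. Chondrocyte clusters with Top2a in over 50% of cells were called cycling. These cutoffs were chosen with the clusters in view, so the rebuilt names may differ from the study's. Scrublet (expected rate 10%) marked 588 barcodes (4.15%) as doublets, which were kept. Among them were 25 of the 160 cycling chondrocyte-like cells, against 2 of the 725 maturing ones. With doublets left out, the cycling class did not separate.

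UMIs were summed per class, and ratios and counts of genes at 2-fold were taken with no test, as 1 library allows none. Cells were not treated as replicates, and the 1 barcode suffix shows a single library. Of the wider list, genes with at least 50 CPM in a skeletal class were named if of a member's family or the highest of their sub-list. The ratio count was tried on simulated sums with known folds and counting error only. That trial cannot show error from class boundaries or from transcripts of other cells. The members and lists were chosen with earlier results of these data known. Exons of Plod2, Fkbp10, Lox and Loxl2 overlap those of another gene on the other strand, and a microRNA gene lies in Loxl2. Sequences are from RefSeq (GRCm38.p6), which matched 6 members.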

Additional observations from a re-analysis of the deposited data

How the results depend on the processing

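For each of the 12 counts of genes at 2-fold, the alternatives planned were tried, and 1 more, naming clusters by leading markers without the limits on collagen and Ptprc, was added after seeing the data. Of 176 such counts, 165 stayed within 1.5 times the reported one. At resolution 0.6 no HC-like class separated, so the comparisons with it have no value there. The marrow stromal progenitor-like class was absent at resolution 0.6, with at least 2000 genes and with at most 5% mitochondrial UMIs, and the cycling class was absent from each other clustering except that with 3000 variable genes, so their levels rest on fewer settings. Genes higher in pre-HC-like than in maturing chondrocyte-like cells numbered 2 with 3000 variable genes. Genes lower in HC-like than in pre-HC-like cells numbered 7 when ratios were centred on the median of all genes. Genes higher in immature osteoblast-like than in HC-like cells numbered 1 with at least 1000 genes, at least 2000 genes, at most 5% mitochondrial UMIs, 10 CPM added, centred ratios, or collagen genes left out of the total. Genes higher in fibroblast-like than in immature osteoblast-like cells numbered 5 with at least 1000 genes and 1 with at most 5% mitochondrial UMIs, and Plod1 and Loxl2 each stayed at 2-fold in 14 of 15. Genes lower in mature osteoblast-like than in maturing chondrocyte-like cells numbered 1 with at most 20% mitochondrial UMIs. The causes were not tested, except that centring and a larger added CPM shift every ratio by construction. Of 2128 single levels, shares and ratios recomputed, 794 left the counting interval of the reported value and 0 called ratios changed sign, although the uncalled ratio of P4ha1 between pre-HC-like and maturing chondrocyte-like cells kept its sign in 6 of 15 alternatives and that of P4ha2 in 14, so class boundaries add error beyond counting. The 6 genes higher in mature than in immature osteoblast-like cells stayed at 2-fold or more in each of the 15 alternatives. No paired analysis was possible because the 4 sequencing entries are 1 library, and for the same reason none could be left out. With 1 mouse, differences between animals cannot be seen at any depth.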

Other observations

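Outside the skeletal classes, some of the genes had levels well above those of blood cells. In 743 endothelial-like cells (median 9110 UMIs), Plod1 stood at 190 CPM (181 to 199), above its highest skeletal level of 147 CPM in maturing chondrocyte-like cells, while Plod2 stood at 40.2 CPM (36.2 to 44.5). Fkbp10 was at 178 CPM (169 to 187) and Serpinh1 at 752 CPM (735 to 770) there. In 99 pericyte or smooth muscle-like cells, Loxl2 stood at 203 CPM (176 to 232) and Serpinh1 at 1164 (1099 to 1231).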
